A study of Mus musculus with 12 samples.

Results

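Macrophages and monocytes within Rd76-9 tumors were followed through 33 genes that mark these cells. The genes were listed by name: 8 used across tissue macrophages, 3 encoding complement C1q, 4 Fc receptors and adaptors, 6 monocyte genes, 4 genes of alternative activation, *Nos2* for classical activation, 2 perivascular or scavenger genes, 3 lipid-associated genes and 2 found in all leukocytes. They are 33 of the 38898 genes with a transcript in the data, and all 33 had enough reads to be tested among 17602 genes. Rd76-9 cells come from an embryonal rhabdomyosarcoma that methylcholanthrene had caused in a C57BL/6 female. They were injected into the flanks of WT C57Bl/6J mice aged 8 to 12 weeks, so each tumor holds tumor cells of 1 line and cells of an immunocompetent host. RNA of whole tumors was sequenced at day 16 in 4 groups of 3. Vehicle-treated mice (tumors m1, m2 and m3) received saline and empty nanoparticles, although a label of these tumors also names the RCM1 nanoparticle. Mice m4, m5 and m6 received vincristine (VCR), which blocks microtubules, at 0.25 mg/kg by weekly intraperitoneal injection. Mice m7, m8 and m9 received RCM1, an inhibitor of the transcription factor FOXM1, intravenously at 8 µg per injection on alternate days in nanoparticles carrying folic acid (RCM1-NPFA). Mice m10, m11 and m12 received both (VCR + RCM1-NPFA).

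Macrophages in tumors arise largely from blood monocytes, which enter through the chemokine receptor CCR2 and lose the surface protein Ly6C as they mature. The cytokine CSF1 keeps them alive through its receptor CSF1R, and the transcription factor PU.1, the product of *Spi1*, switches on much of their gene set. Mature cells take up dying cells, immune complexes and lipid, and are often placed along an axis from classical activation, with nitric oxide synthase (*Nos2*), to alternative activation, with arginase (*Arg1*) and the mannose receptor (*Mrc1*).

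The tumors gave 29342195 to 32108055 estimated counts each, and the 2 lineage markers named for these cells, *Adgre1* and *Csf1r*, were well above detection in all 12. Levels are given as CPM, a read count relative to the scaled size of the library. Y-linked transcripts summed to 16.2 to 26.0 CPM in 7 tumors (1 vehicle, 2 VCR, 2 RCM1-NPFA and 2 combination). They summed to 0.539 to 1.30 CPM in the other 5. *Xist* was at most 0.672 CPM in the 7 and 65.5 to 99.9 CPM in the 5. The vehicle group thus held 1 tumor high in Y-linked transcripts and each treated group 2, as even a spread as 7 tumors allow. Muscle fibre genes summed to 307 to 436 CPM in vehicle-treated tumors and up to 13080 CPM in m5 and 19580 CPM in m9. Since RNA came from whole tumors, fewer macrophages and less RNA per macrophage cannot be told apart.

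Measured per transcript length, as TPM (shares of all transcripts, scaled to the same total in each tumor), the 33 genes spanned a wide range of levels. *Apoe*, which encodes a lipid carrier secreted by macrophages and other cells, was highest, with a median of 2757 TPM (range 1256 to 3424). *Lyz2*, lysozyme, followed at 1974 TPM, and the 3 chains of C1q, the molecule that starts the classical complement pathway, lay at 808 TPM (*C1qa*), 730.1 TPM (*C1qc*) and 689 TPM (*C1qb*). The ranges of the 3 chains overlapped, while their order was nearly the same within each tumor. *C1qa* was the highest chain except in m3 (701.9 TPM, with *C1qc* at 709.1 TPM). *C1qb* was the lowest except in m1 (913.2 TPM, with *C1qc* at 908.5 TPM).

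The signalling adaptors *Tyrobp* and *Fcer1g* had medians of 337 and 301 TPM, and the lysosomal genes *Laptm5* and *Cd68* 201 and 178 TPM. *Csf1r* had a median of 153 TPM and *Adgre1*, which encodes the macrophage antigen F4/80, 57.9 TPM. *Arg1* (83.7 TPM) exceeded *Mrc1* (24.9 TPM) and *Nos2* (3.86 TPM), and the ranges of these 3 genes did not overlap (46.3 to 128, 17.8 to 34.9 and 1.997 to 6.46 TPM). The lowest levels were those of *Ly6c2* (7.66 TPM), *Nos2*, *Lyve1* (3.02 TPM) and *Cd163* (1.68 TPM), a scavenger receptor for haemoglobin.

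**Figure D1:**
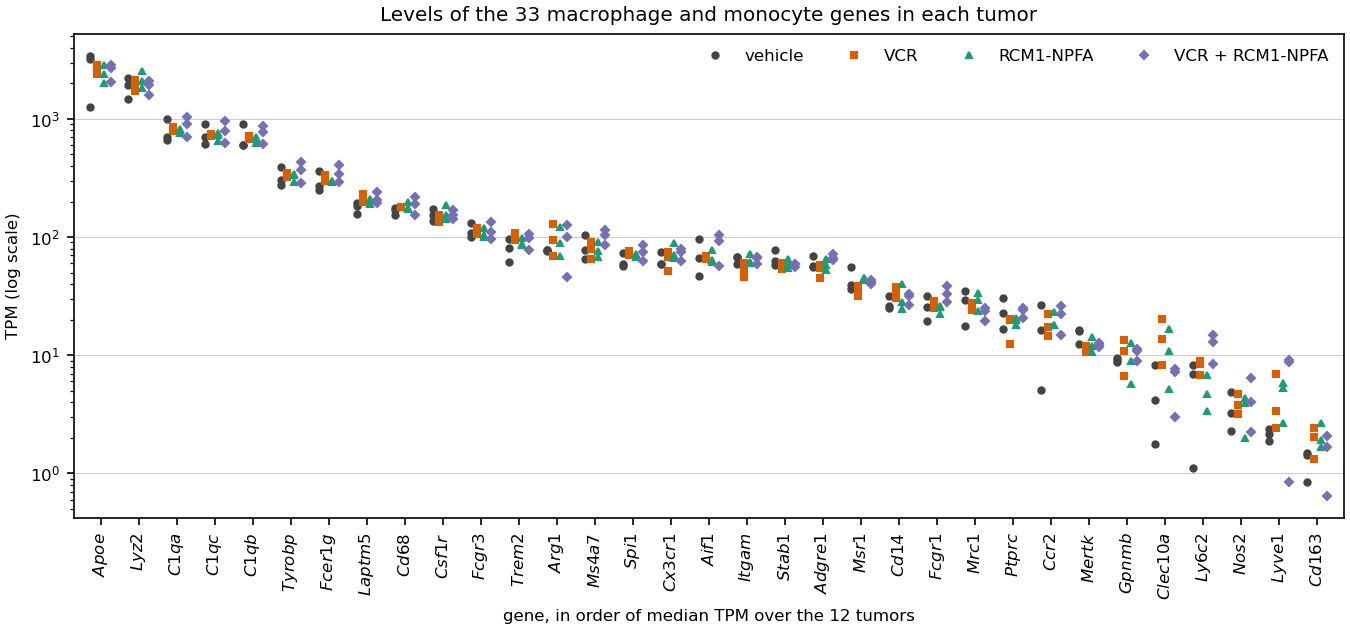
TPM of each of the 33 genes (log scale) in each of the 12 tumors, with genes in order of their median and 1 symbol per tumor shaped by group. *Apoe* and *Lyz2* lead with medians of 2757 and 1974 TPM, *Cd163* is last at 1.68 TPM, and single low tumors stand out for *Apoe*, *Ccr2*, *Ly6c2* and *Lyve1*.

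Regulatory sequence was read for the genes of this set, since several of them rose and fell together across tumors and one of them, *Spi1*, encodes a factor that binds purine-rich sites with a GAGGAA core. RefSeq promoter windows (250 bases before to 50 after a start, GRCm38.p6) were found for 22 of the 33 genes, in 28 windows. GAGGAA, on either strand, was in 18 of these 28 windows, against 28.3% of all 32851 windows. By gene no share over all was counted, and 15 of the 22 genes had a window with GAGGAA. The longer AGAGGAAG, which contains it, was in 7 windows of 5 genes (*Fcgr1*, *Fcgr3*, *Laptm5*, *Ly6c2* and *Mrc1*), against 4.55% of all windows. The 250 bases before a RefSeq start are shown for 2 C1q chains, which vary together, and for 2 genes with the longer motif. Of the other genes put together below with *C1qb* and *C1qc* for their correlations, the window of *Fcer1g* held no GAGGAA, and *C1qa*, *Spi1* and *Tyrobp* were not among the 22 genes. Capitals mark GAGGAA or its reverse complement TTCCTC. The sequences are *C1qb* (chr4:136886201-136886450, minus strand, motif starting 30 bases before the start), *C1qc* (chr4:136892915-136893164, minus strand, 193 bases), *Laptm5* (chr4:130913066-130913315, plus strand, 38 bases) and *Fcgr1* (chr3:96293970-96294219, minus strand, 55 bases).
C1qb: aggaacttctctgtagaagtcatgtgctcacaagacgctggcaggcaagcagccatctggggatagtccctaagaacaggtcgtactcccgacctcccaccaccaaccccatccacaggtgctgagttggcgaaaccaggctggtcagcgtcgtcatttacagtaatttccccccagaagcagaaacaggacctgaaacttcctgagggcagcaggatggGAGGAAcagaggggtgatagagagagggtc
C1qc: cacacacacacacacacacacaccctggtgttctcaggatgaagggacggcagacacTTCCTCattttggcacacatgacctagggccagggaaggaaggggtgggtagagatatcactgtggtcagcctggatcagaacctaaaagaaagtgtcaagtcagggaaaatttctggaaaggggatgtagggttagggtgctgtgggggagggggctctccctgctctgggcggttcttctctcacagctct
Laptm5: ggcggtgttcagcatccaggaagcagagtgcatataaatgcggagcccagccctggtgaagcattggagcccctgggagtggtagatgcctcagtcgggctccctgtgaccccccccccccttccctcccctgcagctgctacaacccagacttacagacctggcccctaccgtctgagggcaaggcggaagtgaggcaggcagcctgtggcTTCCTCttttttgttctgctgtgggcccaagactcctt
Fcgr1: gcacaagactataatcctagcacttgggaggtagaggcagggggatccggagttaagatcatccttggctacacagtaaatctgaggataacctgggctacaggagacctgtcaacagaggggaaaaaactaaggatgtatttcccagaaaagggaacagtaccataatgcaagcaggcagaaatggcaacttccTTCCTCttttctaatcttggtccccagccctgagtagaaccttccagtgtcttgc
The *Laptm5* window lies inside its gene (chr4:130912890-130936148), so the start used there is an internal one. The *C1qc* window overlaps its gene, which reaches to 136892936. A match is a string of letters and does not show binding. The C1q genes lie side by side, within chr4:136880126-136898844 of GRCm38.p6.

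To ask whether treatment altered the macrophage genes, each group was compared with vehicle by edgeR's quasi-likelihood test on the summed counts of each gene, with Benjamini-Hochberg adjustment over 17602 genes and a threshold of 0.1. None of the 33 genes passed in any comparison. After VCR, 0 of 33 genes passed, where 5.72% of all genes did. After RCM1-NPFA and after the combination 0 of 33 passed and 0% of all genes did. The lowest adjusted p among the 33 was 0.126 after VCR, 0.495 after RCM1-NPFA and 0.678 after the combination.

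At an unadjusted p under 0.05, 6 of the 33 genes lay beyond the limit after VCR (*Cd14*, *Clec10a*, *Trem2* and *Laptm5* higher, *Mertk* and *Itgam* lower), where 22.1% of all genes did. After RCM1-NPFA 1 gene did (*Clec10a*, higher), against 9.78% of all genes. After the combination 3 did (*Fcgr1*, *Ly6c2* and *Lyve1*, higher), against 7.31%. The counts after VCR and after the combination lie near the shares of all genes, and that after RCM1-NPFA lies below its share.

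Of the 33 genes, 25 had a mean above vehicle after VCR, 21 after RCM1-NPFA and 26 after the combination, with median log2 fold changes of 0.14, 0.06 and 0.17. Over all genes the medians were 0.00 in each comparison. The DESeq2 test, run as an alternative with all 12 tumors, called 2 of the 33 genes after VCR (*Clec10a* and *Itgam*), where it called 15% of all genes with an adjusted p. It called 0 of 33 after RCM1-NPFA and 0 of 33 after the combination, where it called 1.58% and 0.393% of all genes.

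**Figure D2:**
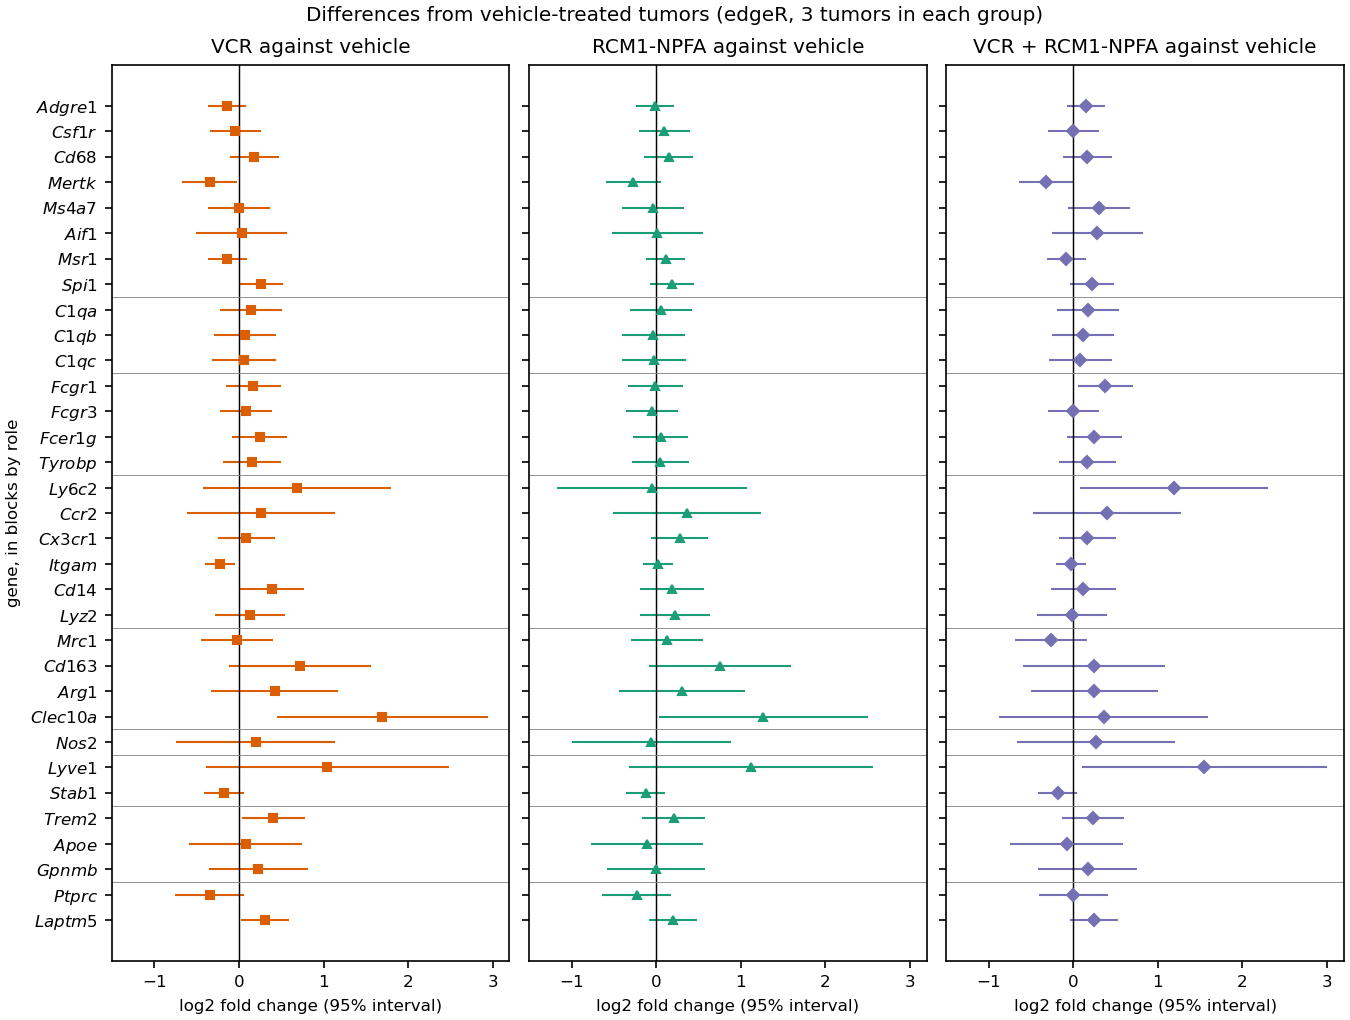
Log2 fold change of each gene against vehicle (point) with its 95% interval (line) from edgeR, for VCR, RCM1-NPFA and the combination, 3 tumors in each group, in blocks by role. Most intervals span 0, the narrowest are those of *Itgam*, *Adgre1*, *Msr1* and *Stab1*, and the widest those of *Lyve1*, *Clec10a* and *Ly6c2*.

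*Adgre1* measured 126, 103 and 113 CPM in vehicle-treated tumors, 109, 92.7 and 108 CPM after VCR, 125, 104 and 110 CPM after RCM1-NPFA, and 116, 134 and 130 CPM after the combination. Each treated group overlapped the vehicle-treated tumors, while all 3 tumors given VCR lay below all 3 given both drugs. How many of all genes did not overlap between VCR and the combination was not counted. The log2 fold changes against vehicle were -0.14 after VCR (95% interval -0.36 to 0.09, adjusted p = 0.462 by edgeR), -0.01 after RCM1-NPFA (-0.23 to 0.22, adjusted p = 0.988) and 0.15 after the combination (-0.07 to 0.38, adjusted p = 0.759). Between the combination and VCR the difference in *Adgre1* was 0.29 ± 0.10 (SE), with an adjusted p of 0.855.

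*Csf1r*, the receptor on which these cells depend, measured 384, 303 and 382 CPM in vehicle-treated tumors, 372, 337 and 326 CPM after VCR, 359, 454 and 331 CPM after RCM1-NPFA, and 314, 354 and 402 CPM after the combination. The highest tumor, m8, and the lowest, m2, belong to different groups, and the groups overlapped. The intervals of its log2 fold changes ran from -0.34 to 0.25 after VCR, from -0.20 to 0.40 after RCM1-NPFA and from -0.30 to 0.30 after the combination. Changes of the lineage receptor larger than these bounds lie outside the 95% intervals of the fit.

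*Mertk*, a receptor for the uptake of dying cells, had the largest log2 fold change of the pan-macrophage genes in all 3 comparisons. It measured 41.7, 32.1 and 47.3 CPM in vehicle-treated tumors, 29.7, 35.4 and 29.99 CPM after VCR, 32.2, 39.5 and 28.5 CPM after RCM1-NPFA, and 32.3, 31.0 and 33.5 CPM after the combination. The vehicle-treated tumor m2 lay among the treated tumors. The log2 fold changes were -0.35 ± 0.15 (SE; adjusted p = 0.199 by edgeR), -0.27 ± 0.15 (adjusted p = 0.587) and -0.32 ± 0.15 (adjusted p = 0.683). The other pan-macrophage genes, *Cd68*, *Ms4a7*, *Aif1*, *Msr1* and *Spi1*, had log2 fold changes between -0.14 (*Msr1* after VCR) and 0.30 (*Ms4a7* after the combination).

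The C1q genes were among the most abundant of the set. *C1qa* measured 536, 364 and 425 CPM in vehicle-treated tumors, 474, 538 and 452 CPM after VCR, 465, 485 and 429 CPM after RCM1-NPFA, and 383, 501 and 612 CPM after the combination. The spread within the vehicle and combination groups exceeded the differences between group means. Its log2 fold changes were 0.14, 0.06 and 0.18, each with an SE of 0.17 and with adjusted p of 0.654, 0.947 and 0.819 by edgeR. Those of *C1qb* and *C1qc* lay between -0.03 and 0.11.

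Of the 4 genes for Fc receptors and their adaptors, which bind antibody-coated targets and pass on the signal, none passed, and the largest log2 fold changes were those of *Fcer1g* after VCR and after RCM1-NPFA and of *Fcgr1* after the combination. *Fcgr1*, the high-affinity receptor for IgG, measured 45.8, 37.0 and 31.8 CPM in vehicle-treated tumors, 44.6, 41.7 and 42.8 CPM after VCR, 40.0, 34.9 and 38.8 CPM after RCM1-NPFA, and 40.3, 49.1 and 59.9 CPM after the combination. The vehicle-treated tumor m1 exceeded the combination tumor m10. The log2 fold change after the combination was 0.38 ± 0.15 (SE; adjusted p = 0.678 by edgeR). *Fcer1g* measured 110, 83.4 and 84.8 CPM in vehicle-treated tumors and 114, 121 and 94.6 CPM after VCR, a log2 fold change of 0.24 ± 0.15 (adjusted p = 0.355). After RCM1-NPFA it was at 93.1, 100.3 and 95.4 CPM, a log2 fold change of 0.06 ± 0.15 (adjusted p = 0.939). With a spline of transcript length in the fit *Fcer1g* turned to -0.06 after VCR and -0.08 after RCM1-NPFA.

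*Ly6c2* and *Ccr2* varied more between single tumors than the other monocyte genes. *Ly6c2*, the surface marker of inflammatory monocytes (chr15:75108161-75112066), measured 3.22, 2.81 and 0.475 CPM in vehicle-treated tumors, 3.88, 3.16 and 3.51 CPM after VCR, 1.95, 1.46 and 2.87 CPM after RCM1-NPFA, and 5.24, 3.41 and 6.204 CPM after the combination. All 3 combination tumors exceeded all 3 vehicle-treated tumors, and *Ly6c2* was the only one of the 33 genes without overlap in that comparison, where 12.6% of all genes did not overlap. The log2 fold change was 1.19 ± 0.51 (SE; 95% interval 0.08 to 2.30), with an adjusted p of 0.682 by edgeR. Without m3, where 14 counts were assigned to the gene, it was 0.71. After VCR it was 0.69 ± 0.51 (adjusted p = 0.451) and after RCM1-NPFA -0.05 ± 0.51 (adjusted p = 0.987). Against RCM1-NPFA the combination was higher by 1.24 ± 0.51 (adjusted p = 0.9999).

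*Ccr2*, the chemokine receptor that monocytes use to enter tissue, was also lowest in m3. It measured 55.7, 33.6 and 11.8 CPM in vehicle-treated tumors, 32.99, 40.8 and 47.5 CPM after VCR, 39.1, 40.5 and 50.5 CPM after RCM1-NPFA, and 53.2, 47.4 and 32.9 CPM after the combination. The log2 fold changes of 0.26, 0.36 and 0.40 (SE 0.40 each, adjusted p 0.745 to 0.831 by edgeR) became -0.14, -0.04 and -0.01 without m3. *Itgam*, the integrin CD11b, had the narrowest error of the monocyte genes, and all 3 tumors given VCR (159, 142 and 168 CPM) lay below all 3 vehicle-treated tumors (183, 185 and 179 CPM). The log2 fold change was -0.22 ± 0.08 (SE; adjusted p = 0.149 by edgeR, and 0.0563 by DESeq2). It reached -0.30 when m6 was left out, the only omission of 1 tumor that brought a gene of the set past the threshold, and 11.2% of all genes passed without that tumor.

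Of the other monocyte genes, *Cx3cr1*, the fractalkine receptor, had log2 fold changes of 0.09, 0.28 and 0.17, and *Lyz2* of 0.13, 0.23 and -0.02. *Cd14*, a co-receptor for bacterial lipopolysaccharide, had log2 fold changes of 0.39, 0.18 and 0.12. The lowest of their adjusted p was 0.217 by edgeR.

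Among the genes of alternative activation, *Clec10a* had the largest log2 fold change of the whole set after VCR. This lectin of macrophages and dendritic cells (chr11:70166623-70170836) measured 6.52, 3.35 and 1.56 CPM in vehicle-treated tumors, 7.27, 18.6 and 11.3 CPM after VCR, 14.0, 4.46 and 9.10 CPM after RCM1-NPFA, and 5.71, 2.46 and 6.55 CPM after the combination. The tumors given VCR lay above all vehicle-treated tumors, while those given both drugs lay within or next to the vehicle range. The log2 fold changes were 1.70 ± 0.57 (SE; 95% interval 0.45 to 2.94, adjusted p = 0.126 by edgeR), 1.27 ± 0.57 (adjusted p = 0.495) and 0.36 ± 0.56 (adjusted p = 0.906). DESeq2 gave an adjusted p of 0.0705 after VCR. With a term for tumors with a Y-linked sum of at least 1 CPM edgeR gave 1.27 (adjusted p = 0.267). That limit placed m1, m2 and m10 (1.303, 1.102 and 1.175 CPM) with the tumors high in Y-linked transcripts. Their *Xist* was at 99.9, 79.2 and 71.9 CPM. With the limit at 5 CPM, added after the data were seen, edgeR gave 2.09 (adjusted p = 0.0865, where 2.14% of all genes passed). Between the combination and VCR the log2 fold change was -1.34 ± 0.56 (adjusted p = 0.855), and the interaction of the drugs, the difference from the sum of the single effects, was -2.60 ± 0.80 with an adjusted p of 0.293.

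*Cd163* was measured at a low level, at 3.57, 3.63 and 2.39 CPM in vehicle-treated tumors, 3.65, 7.003 and 5.20 CPM after VCR, 4.94, 4.40 and 6.84 CPM after RCM1-NPFA, and 5.19, 1.66 and 4.52 CPM after the combination. The tumors of both single drugs lay above all vehicle-treated tumors, m4 by very little, and the combination overlapped. Its differences from vehicle were 0.72 ± 0.38 on the log2 scale (SE; adjusted p = 0.288 by edgeR), 0.75 ± 0.38 (adjusted p = 0.562) and 0.25 ± 0.38 (adjusted p = 0.906).

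*Arg1*, arginase, measured 61.0, 60.5 and 67.8 CPM in vehicle-treated tumors, 59.9, 116 and 77.2 CPM after VCR, 74.6, 59.2 and 100.1 CPM after RCM1-NPFA, and 36.3, 81.8 and 107 CPM after the combination. The vehicle-treated tumors were close together and each treated group spread around them. Against vehicle, its log2 fold changes were 0.42, 0.30 and 0.25 (SE 0.34 each, adjusted p 0.503 to 0.883 by edgeR). *Mrc1*, the mannose receptor, measured 91.3, 108 and 61.8 CPM in vehicle-treated tumors, 82.4, 97.3 and 77.9 CPM after VCR, 95.5, 113 and 76.5 CPM after RCM1-NPFA, and 77.6, 62.2 and 78.8 CPM after the combination, with log2 fold changes of -0.02, 0.13 and -0.26 (SE 0.19 each). After VCR the sign of *Mrc1* turned under several alternatives, to 0.05 with a spline of transcript length and 0.20 with a covariate for muscle fibre CPM.

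*Nos2*, the single gene of classical activation in the set, measured 7.37, 5.14 and 12.5 CPM in vehicle-treated tumors, 7.71, 12.2 and 8.81 CPM after VCR, 9.30, 4.76 and 9.98 CPM after RCM1-NPFA, and 5.02, 9.22 and 15.9 CPM after the combination. Its log2 fold changes were 0.20, -0.06 and 0.27 (SE 0.43 each, adjusted p 0.826 to 0.983 by edgeR). The spread within each group was larger than the difference between groups. Across tumors *Nos2* and *Arg1*, which compete for the amino acid arginine, varied together, a pair picked after its values were seen, with r = 0.798 and rho = 0.832 of log2(CPM + 0.1) over 12 tumors (adjusted permutation p = 0.0222 and 0.0283), and with r = 0.757 without m5 and m10.

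*Lyve1*, a hyaluronan receptor of perivascular macrophages and of lymphatic endothelium (chr7:110850607-110862953), was described after its values were seen. It measured 3.15, 3.49 and 3.06 CPM in vehicle-treated tumors, 3.87, 5.62 and 10.6 CPM after VCR, 8.04, 4.21 and 8.87 CPM after RCM1-NPFA, and 12.8, 1.26 and 14.4 CPM after the combination. The vehicle-treated tumors were nearly equal, the tumors of both single drugs lay above them, and the combination held both the highest and the lowest tumor of all. Against vehicle these were log2 fold changes of 1.05 ± 0.66 (SE; adjusted p = 0.373 by edgeR), 1.12 ± 0.66 (adjusted p = 0.618) and 1.55 ± 0.66 (adjusted p = 0.682). Without m11 the last was 2.07. *Stab1*, a scavenger receptor of the same block, had log2 fold changes of -0.17, -0.12 and -0.19.

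Tumors without overlap between VCR and vehicle were found for 5 of the 33 genes (*Cd163*, *Clec10a*, *Lyve1* and *Trem2* higher, *Itgam* lower), against 24.4% of all genes. For RCM1-NPFA there were 2 (*Cd163* and *Lyve1*, higher), against 11.4%. Both shares lie below those of all genes.

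*Trem2*, a lipid-sensing receptor of tumor macrophages, measured 53.2, 34.5 and 50.2 CPM in vehicle-treated tumors, 59.4, 68.9 and 54.6 CPM after VCR, 57.1, 52.0 and 50.4 CPM after RCM1-NPFA, and 43.1, 56.1 and 63.4 CPM after the combination. The 3 tumors given VCR lay above the vehicle-treated ones, of which m2 was the lowest of all 12. Log2 fold changes were 0.41 ± 0.17 (SE; adjusted p = 0.189 by edgeR), 0.21 ± 0.17 (adjusted p = 0.732) and 0.24 ± 0.17 (adjusted p = 0.773). *Apoe* was also lowest in m2, at 856 CPM against 1363 to 2409 CPM in the other 11 tumors, and *Gpnmb*, a glycoprotein of lipid-laden macrophages, had log2 fold changes of 0.23, 0.00 and 0.17.

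The 2 leukocyte genes did not move together. *Ptprc*, the CD45 antigen, had log2 fold changes of -0.35, -0.23 and 0.00, and *Laptm5* of 0.31, 0.20 and 0.25, with adjusted p of at least 0.189 by edgeR in each case.

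**Figure D3:**
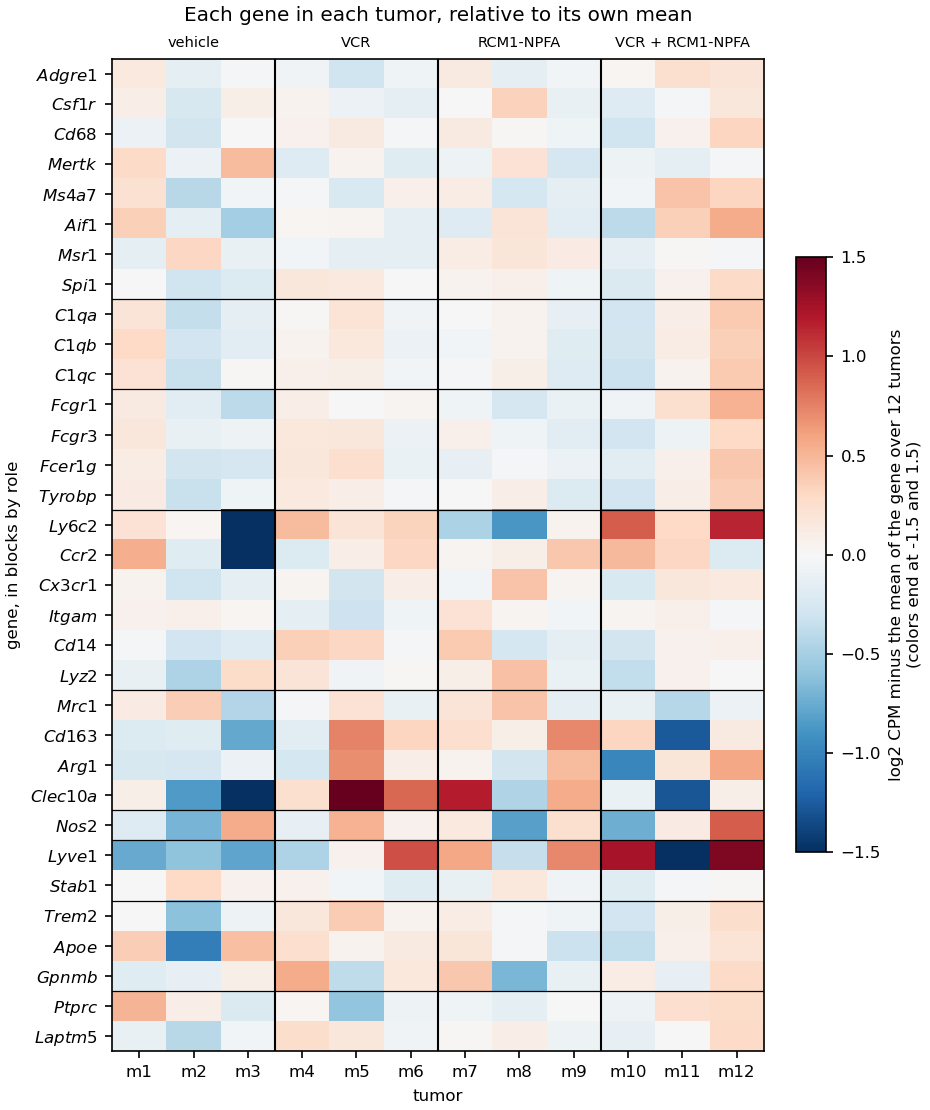
Log2 CPM of each gene in each tumor minus the mean of that gene over the 12 tumors, with genes in blocks by role and tumors in blocks by group. *Ly6c2*, *Ccr2* and *Clec10a* are low in m3, *Apoe* in m2 and *Lyve1* in m11, while the C1q, *Fcer1g*, *Tyrobp* and *Spi1* rows share one pattern, low in m2 and m10 and high in m12.

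The remaining comparisons also gave no call by edgeR. Between the combination and VCR, 3 genes had an unadjusted p under 0.05 (*Adgre1*, *Itgam* and *Clec10a*), against 5.26% of all genes. Between the combination and RCM1-NPFA there were 2 (*Fcgr1* and *Ly6c2*), against 2.07%. The interaction had 3 (*Cd163*, *Clec10a* and *Ptprc*), against 13.8%, and a test of any difference among the 4 groups had 2 (*Itgam* and *Clec10a*), against 10.5%. Past the adjusted threshold, each of these 4 comparisons held 0% of all genes. DESeq2 called none of the 33 genes in them either, against 0.256% of all genes between the combination and VCR (where 21 of the 33 genes had an adjusted p), 0% between the combination and RCM1-NPFA, 2.73% for the interaction and 4.32% for the 4-group test.

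To compare polarization with macrophage content, the CPM of each list was divided by the summed CPM of the 8 pan-macrophage genes in the same tumor and taken on the log2 scale, as a description. The pan-macrophage sum was 832 ± 80.5 CPM in vehicle-treated tumors (SD, n = 3), 822 ± 34.7 CPM after VCR, 873 ± 73.4 CPM after RCM1-NPFA and 877 ± 113 CPM after the combination. The ratio of the monocyte list was 0.76 ± 0.18, 0.88 ± 0.08, 0.91 ± 0.11 and 0.72 ± 0.09 in the same order. It mostly follows *Lyz2*, which had a median of 1100 CPM where the list summed to a median of 1513 CPM. *Ly6c2* alone was at -8.99 ± 1.58, -7.87 ± 0.11, -8.76 ± 0.61 and -7.50 ± 0.47. The ratio of the alternative activation list was -2.41 ± 0.31, -2.15 ± 0.37, -2.22 ± 0.17 and -2.50 ± 0.17. In both lists each treated mean differed from the vehicle mean by less than the SD of the vehicle-treated tumors, although 3 genes of the second list differed by more after VCR and RCM1-NPFA. *Arg1* was at -3.72 ± 0.14 in vehicle-treated tumors and -3.34 ± 0.53, -3.52 ± 0.50 and -3.67 ± 0.62 in the treated groups. *Clec10a* was at -8.00 ± 1.01 against -6.16 ± 0.73, -6.72 ± 0.91 and -7.59 ± 0.80. *Cd163* was at -8.05 ± 0.41 against -7.33 ± 0.52, -7.36 ± 0.45 and -8.01 ± 0.97. For *Arg1* the SDs of the treated groups exceeded these differences. The ratio of the C1q list was 0.58 ± 0.16, 0.71 ± 0.11, 0.53 ± 0.01 and 0.63 ± 0.15.

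Further macrophage genes that are no part of the set were counted in the same fit. Of 44 such genes, 1 passed after VCR, where 5.72% of all genes did. It was *Vegfa*, an angiogenic factor made by many cells, which fell by 0.52 on the log2 scale (adjusted p = 0.0801 by edgeR). The median over the 44 was 0.15 after VCR, 0.04 after RCM1-NPFA and 0.14 after the combination. Of 13 tested genes for recruitment and survival of these cells, 1 passed after VCR, against the same 5.72%, namely *Ccl2*, the ligand of CCR2, which rose by 0.62 ± 0.17 (SE; adjusted p = 0.0870). None of these genes passed after RCM1-NPFA or the combination.

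Markers of other cells were counted in the same way, beside 5.72% of all genes called after VCR and 0% after RCM1-NPFA and after the combination. Of 15 muscle fibre genes, 7 rose after VCR (*Mylpf*, *Acta1* and *Tnnc2* among them, with log2 fold changes of 7.59, 7.37 and 7.22), and the median over the 15 was 6.91 after VCR, 6.804 after RCM1-NPFA and 5.40 after the combination, where none of the 15 passed. The value after RCM1-NPFA rests on m9, with summed muscle fibre CPM of 19580, against 399.5 in m7 and 538.9 in m8. Vehicle-treated tumors had 306.7 to 435.6 CPM. Of 7 tested myogenic genes 3 rose (*Myod1*, *Myog* and *Des*), of 7 fibroblast genes 2 (*Col1a1* and *Dcn*), of 7 tested endothelial genes 1 (*Tie1*) and of 4 tested mast cell genes 1 (*Cma1*). No tested gene of the neutrophil, dendritic cell, lymphocyte, adipocyte or keratinocyte lists passed after VCR. Lymphocyte genes summed to 6.09 to 44.5 CPM and neutrophil genes to 31.6 to 79.7 CPM, against 4940 to 7651 CPM for the 33 genes. These sums cover 10, 10 and 33 genes of unlike abundance, so they do not compare numbers of cells. The part of these other cells in the macrophage values was not tested. With a covariate for muscle fibre CPM the median log2 fold changes of the 33 genes were 0.22 after VCR, 0.12 after RCM1-NPFA and 0.20 after the combination, and without m5 and m9, the tumors of highest muscle fibre CPM, 0.12, 0.08 and 0.16.

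Differences from vehicle followed transcript length. Among genes with a mean of 50 or more counts, the median log2 fold change after VCR was 0.19 for an effective length under 1000 bases, 0.11 for 1000 to 2000, 0.01 for 2000 to 4000 and -0.16 over 4000. After RCM1-NPFA the first and last were 0.07 and -0.09, and after the combination 0.06 and -0.07. Among the 33 genes the class over 4000 bases stood apart. After VCR, 9 of 9 genes under 1000 bases, 8 of 8 from 1000 to 2000 and 7 of 10 from 2000 to 4000 lay above vehicle, with median log2 fold changes of 0.145, 0.221 and 0.185, against 1 of 6 over 4000 bases with a median of -0.2. These 6 were *Mertk*, *Itgam*, *Mrc1*, *Cd163*, *Stab1* and *Ptprc*, of which *Cd163* lay above vehicle.

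With a spline of length in the fit, an alternative added after the data were seen, the median log2 fold changes of the 33 genes were -0.06 after VCR, -0.03 after RCM1-NPFA and 0.10 after the combination, so the first and second turned in sign. *Itgam* stood at -0.19 (adjusted p = 0.240 by edgeR), *Trem2* at 0.15 (adjusted p = 0.597) and *Clec10a* at 1.48 (adjusted p = 0.180). *C1qa* turned to -0.11 after VCR and -0.06 after RCM1-NPFA.

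**Figure D4:**
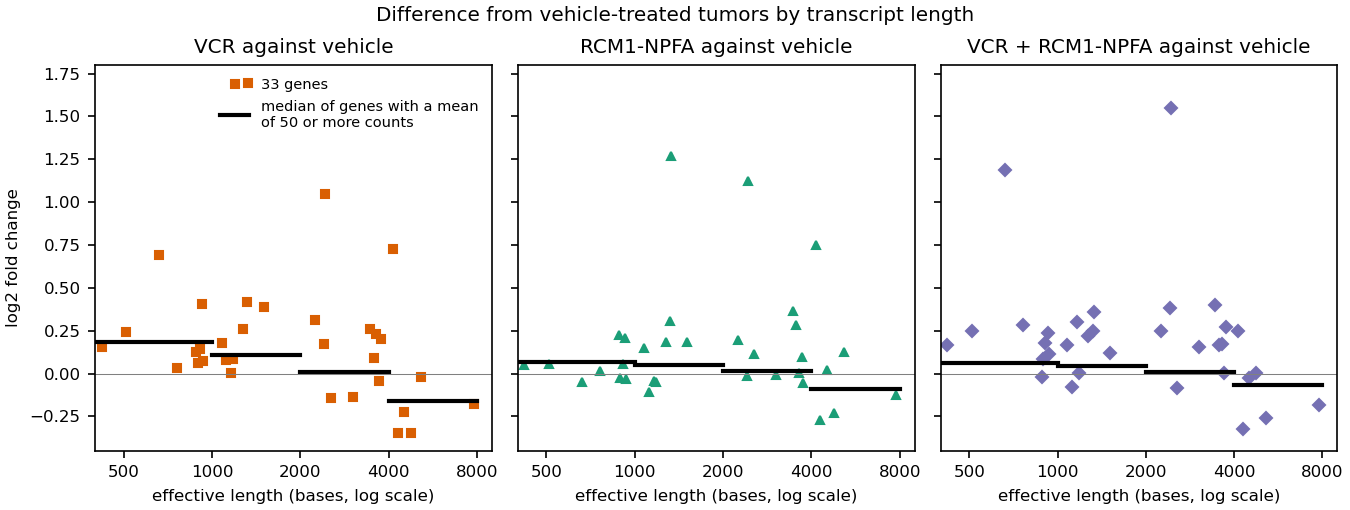
Log2 fold change against vehicle by effective transcript length (bases, log scale) for the 33 genes (symbols) in the 3 comparisons, with the median of genes with a mean of 50 or more counts in each length class (black lines). The black lines step down from 0.19 to -0.16 after VCR and by less in the other comparisons, and 5 of the 6 longest genes lie below 0 after VCR.

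Which of the genes vary together was examined over the 12 tumors as correlations of log2(CPM + 0.1), with 100000 permutations each. The tumors share the scaling of their libraries, so these are relations between shares of reads. Of 32 genes set against *Csf1r*, 4 passed an adjusted p of 0.1 by Pearson's r and 2 by Spearman's rho. By r the number was 0 on log2(TPM + 0.1), and with 1 tumor left out it ran from 0 (without m10) to 13 (without m8). *Lyz2* was closest (r = 0.813, permutation p = 0.00153, adjusted 0.049, rho = 0.629, permutation p = 0.0321, adjusted 0.124), and r fell to 0.582 without m8 and m2, the tumors farthest from the median of *Csf1r*. *C1qc* had r = 0.75 (permutation p = 0.005, adjusted 0.0697) and rho = 0.867 (permutation p = 0.00062, adjusted 0.0198), and r was 0.844 without these 2 tumors.

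*Cx3cr1* had r = 0.735 (permutation p = 0.00653, adjusted 0.0697) and rho = 0.587 (permutation p = 0.0496, adjusted 0.159), and its relation rests on m8 and m2, without which r was 0.38. *Tyrobp*, named after its values were seen, had r = 0.718 (permutation p = 0.00878, adjusted 0.0702) and rho = 0.797 (permutation p = 0.00307, adjusted 0.0491), with 0.764 without the same tumors. Within groups, as deviations from the group means, r was 0.864 for *Lyz2*, 0.854 for *C1qc*, 0.745 for *Cx3cr1* and 0.864 for *Tyrobp*.

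The lowest correlations with *Csf1r* were those of *Ly6c2* (r = -0.318, rho = -0.14), *Ccr2* (r = -0.247, rho = -0.343) and *Cd163* (r = -0.221, rho = -0.364), with permutation p adjusted to at least 0.455 in each. *Clec10a* was at r = -0.194. *Adgre1*, the other lineage marker, had r = 0.22 and rho = 0.329 with *Csf1r* (permutation p = 0.494 and 0.299, adjusted 0.737 and 0.455), so the 2 markers were not shown to vary together.

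Among all 528 pairs of the 33 genes, 74 passed an adjusted permutation p of 0.1 by r, all positive, and 48 passed by both r and rho. *Spi1* and *Tyrobp* each took part in 10 of the 48 pairs. The 6 genes *C1qa*, *C1qb*, *C1qc*, *Tyrobp*, *Fcer1g* and *Spi1*, put together after the correlations were seen, had r between 0.808 and 0.972 and rho between 0.818 and 0.979 in their 15 pairs. Within groups the lowest of their r was 0.855, after removal of a trend with length 0.799, and with the 2 most distant tumors removed 0.64. Their effective lengths lie between 420 and 1273 bases.

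A few pairs outside this block were also high, and are given as described after the fact. *Adgre1* and *Ms4a7*, a membrane protein of macrophages, had r = 0.874 and rho = 0.86, *Cd163* and *Clec10a* r = 0.823 and rho = 0.811, *Cd163* and *Lyve1* r = 0.79 and rho = 0.797, and *Fcgr1* and *Ly6c2* r = 0.785 and rho = 0.818. In the same order, the adjusted permutation p was 0.00745, 0.0181, 0.0237 and 0.0413 by r and 0.0151, 0.03, 0.0401 and 0.0283 by rho. With the 2 most distant tumors removed, r was 0.882, 0.674, 0.545 and 0.569.

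**Figure D5:**
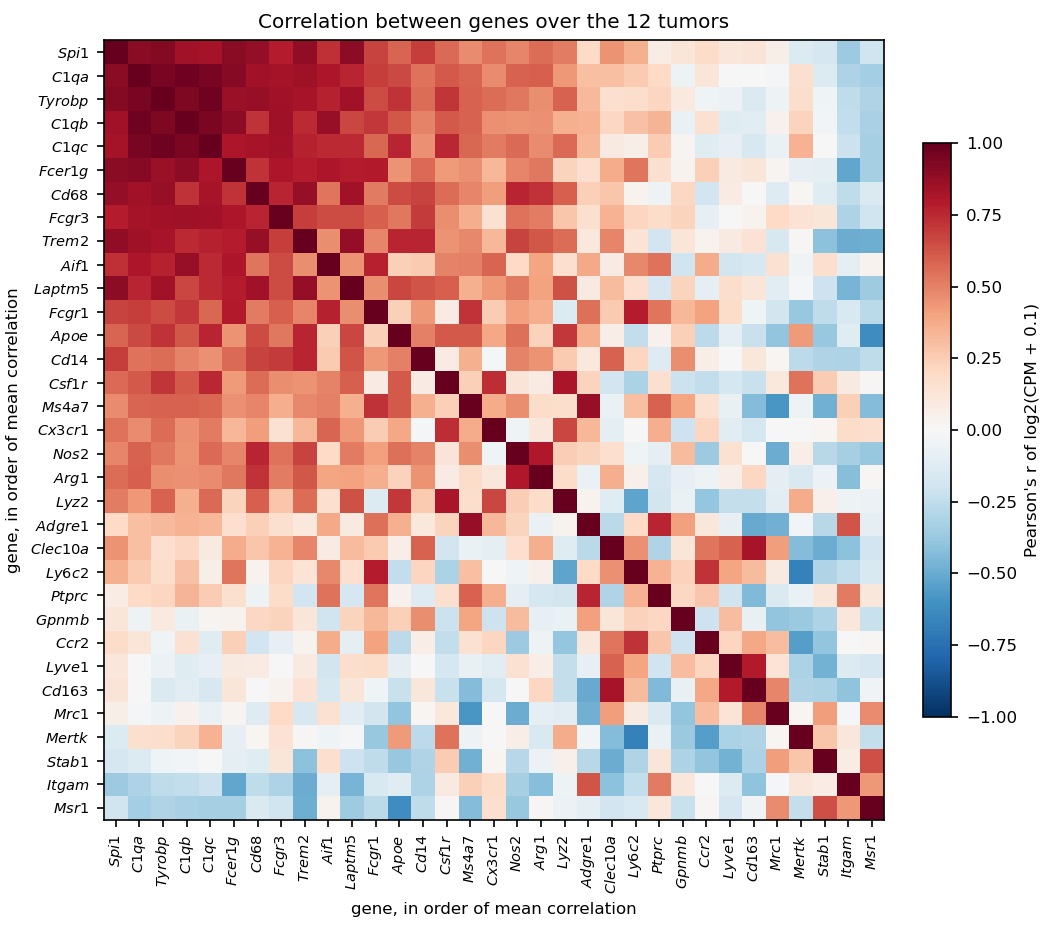
Pearson's r of log2(CPM + 0.1) over the 12 tumors for each pair of the 33 genes, with genes in order of their mean correlation. A block led by *Spi1*, the C1q genes, *Tyrobp* and *Fcer1g* holds r of 0.808 to 0.972, *Cd163* is high with *Clec10a* (0.823) and *Lyve1* (0.79) but *Clec10a* with *Lyve1* less so (0.589), and *Mertk*, *Stab1*, *Itgam* and *Msr1* have the lowest mean correlations.

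Some of these genes have near copies whose reads the counting may divide between them. *Ly6c1* lay at 5.04 to 21.0 CPM beside *Ly6c2*, *Lyz1* at 89.4 to 186 CPM beside *Lyz2*, and *Mgl2* at 0.555 to 11.1 CPM beside *Clec10a*. The values of *Ly6c2*, *Lyz2* and *Clec10a* are uncertain to that extent. *Mgl2*, like *Clec10a* and *Ly6c2*, was lowest in m3 and, like *Clec10a*, highest in m5.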

How the data were processed

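The authors prepared poly-A libraries from 12 tumors and assigned reads to transcripts of GRCm38 with kallisto, per the labels and methods, and analysed them with DESeq2. The deposited values are an estimated count, a TPM and an effective length for each transcript. The estimated counts are not normalized, and kallisto divides reads shared by transcripts. The kit is named as stranded while the libraries are called non-stranded, so reads of antisense neighbours may have been counted together. No batch is given.

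Each of the 120299 transcripts had a RefSeq gene (GRCm38.p6). Estimated counts were summed per gene and rounded. Genes were kept by filterByExpr (minimum count of 10), scaled by TMM and tested in 1 fit of 4 groups with the quasi-likelihood test of edgeR 4.0.16 in R 4.3.3, which was tested on simulated data. P-values were adjusted by Benjamini-Hochberg over 17602 genes, with a threshold of 0.1. CPM are relative to the TMM-scaled library, and TPM were summed per gene and used to compare levels between genes. Alternatives included limma 3.58.1 (voom, and log2 TPM with a pseudocount of 1 or 0.1) and DESeq2 1.42.0. Correlations used Python 3.11.15 with scipy 1.17.1 and a pseudocount of 0.1 CPM.

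The members and gene lists were chosen with earlier results of these data known. Genes described one by one were *Adgre1* and *Csf1r*, the gene of largest change in each role list of at least 3, the main polarization and monocyte genes, and the 3 highest and 3 lowest correlations with *Csf1r*. *Lyve1* was added. Each tumor is 1 mouse. The p-values of the fits weigh group differences against the spread between these tumors, and those of correlations come from permuting tumors. The qRT-PCR, staining and patient data were not analysed here.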

Additional observations from a re-analysis of the deposited data

How the results depend on the processing

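For the 33 genes, the number called was 0 under every alternative run for RCM1-NPFA, the combination, the comparisons of the combination with each single drug, the interaction and the 4-group test. After VCR the count was 2 by the DESeq2 test (*Clec10a* and *Itgam*; 15% of all genes called), 1 with a term for a Y-linked sum of 5 or more CPM (*Clec10a*; 2.14%), and 0 to 1 with 1 tumor left out (1, *Itgam*, without m6; 11.2%). The causes were not tested. The settings for length, the Y-linked limit of 5 CPM and leaving out m5 and m9 were chosen after seeing the data. Of 1134 alternative values of 42 log2 fold changes, 1072 kept their direction and side of the threshold, 60 turned in sign and 2 newly passed, and 22 of the 42 turned under none. The 1072 include a threshold of 0.05 on the main fit, under which no value could turn or newly pass. Leaving out a tumor of a group not compared acted only through the shared filter, scaling and spread. No paired analysis was possible because the tumor numbers are not shared between groups. With 3 tumors a group and an SE of 0.08 to 0.66, small changes in the rarer genes were not detectable.

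*Csf1r* after the combination turned to -0.0056 with DESeq2 size factors and by the DESeq2 test, -0.0031 without a filter, -0.0114 with a mean of at least 50 counts, -0.0025 with only the groups compared, -0.0496 with the Y-linked term at 5 CPM, -0.0264 with the length spline and -0.0026 without m5 and m9. With the muscle covariate *Adgre1* after RCM1-NPFA was 0.0292 (0.0097 without m5 and m9), *Ccr2* after VCR -0.0275, *Csf1r* after VCR 0.1263 and *Mrc1* after VCR 0.1955. With the length spline *C1qa* was -0.0559 after RCM1-NPFA and -0.1123 after VCR, *Fcer1g* -0.0786 and -0.0633, and *Mrc1* after VCR 0.0468. *Ly6c2* after RCM1-NPFA was 0.2888 by limma-voom, 0.108 on log2(TPM + 1), 0.2312 on log2(TPM + 0.1), and 0.0112 and 0.2023 with Y-linked terms at 1 and 5 CPM. *Mrc1* after VCR was 0.0102 by limma-voom and 0.0871 with the Y-linked term at 5 CPM, and *Nos2* after VCR -0.0157 without m5 and m9.

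With 1 tumor left out, values ranged as follows after RCM1-NPFA: *Adgre1* -0.0886 to 0.0692, *C1qa* -0.0705 to 0.2206, *Ccr2* -0.0423 to 0.9343, *Csf1r* -0.0453 to 0.1921, *Fcer1g* -0.0221 to 0.1944, *Ly6c2* -0.5241 to 0.3472, *Mrc1* -0.069 to 0.3034 and *Nos2* -0.3105 to 0.356. After VCR, *Ccr2* ranged from -0.1439 to 0.8329, *Csf1r* from -0.1658 to 0.0126, *Mrc1* from -0.2155 to 0.146 and *Nos2* from -0.0661 to 0.6112. After the combination, *Arg1* ranged from -0.0968 to 0.5702, *Ccr2* from -0.0051 to 0.9718, *Cd163* from -0.0687 to 0.6038, *Clec10a* from -0.0122 to 0.9963, *Csf1r* from -0.1117 to 0.0746 and *Nos2* from -0.2258 to 0.6815. The number of genes past the threshold with *Csf1r* was 4 in the main values, 0 on log2(TPM + 0.1), and 0 to 13 with 1 tumor left out (0 without m10, 13 without m8).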
